A study of Mus musculus with 2 samples.

Results

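BMP ligands, Gdf10 and antagonists were followed through the dissociated neonatal mouse heart as 9 genes, Bmp2, Bmp4, Bmp5, Bmp6, Bmp7, Bmp10, Gdf10, Grem1 and Bmper, out of the 31053 genes of the count matrices. The members were taken by their symbols, from a list drawn up when earlier results of these data were known. Single cell RNA-seq had been performed on intact hearts at postnatal day 1 (P1) and at postnatal day 7 (P7), with 1 library per age, and no genotype, treatment, strain or sex was labelled. For each library, 3 hearts of a single litter were pooled, minced and digested in collagenase II, for 20 min at P1 and for 45 min at P7, after which red cells were lysed and live cells were sorted as 7-AAD negative. Age, litter and digestion time therefore cannot be told apart, and no test between the ages was possible. The ages were compared to ask in which cells each ligand or antagonist was transcribed, and at what level, in the first week after birth.

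BMPs are secreted dimeric ligands of the TGF-beta superfamily. They assemble type I and type II serine/threonine kinase receptors, which phosphorylate SMAD1, SMAD5 and SMAD9, and these act with SMAD4 on genes such as the Id family. Secreted antagonists bind the ligands and keep them from their receptors, and the inhibitory SMAD6 and SMAD7 act inside the cell. In the developing heart the pathway is known for its part in cushion and valve formation, in trabeculation and in the coronary vessels.

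Barcodes were kept with 200 to 8000 genes and at most 20% mitochondrial UMIs (unique molecular identifiers, each standing for 1 captured transcript). This left 4991 P1 cells with 59026295 UMIs and 8511 P7 cells with 97432007 UMIs, with medians of 10875 and 10104 UMIs per cell. The libraries stood apart in more than age. At P1 there were 57336 UMIs of Xist and 2 of the Y-linked Uty, Kdm5d, Ddx3y and Eif2s3y summed, and at P7 there were 12 and 18039, so sex was confounded with age as well. Cells with a UMI of the lung or posterior stroma genes Hoxa5, Foxf1 or Tbx4, or with at least 2 alveolar genes, made up 8.90% of P1 and 2.73% of P7 cells. They are called lung-type below, a name for these genes and not an identity, since whether the cells came from lung was not tested. Values without them are given for some of the results only. The libraries shared 13 barcodes among the kept cells.

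Cells were assigned to classes by the UMIs of gate genes, 2 or more for each gate except 1 each for Fmod and Scx. The Cdh5 class held 1617 cells at P1 and 3197 at P7, of which 218 and 68 had 2 or more UMIs of Npr3, which marks endocardium (Npr3+ below, the rest Npr3-low). The Pdgfra class held 909 and 1924 cells, Fmod+Scx 225 and 117, Myh11 152 and 394, Kcnj8 192 and 340, and Upk3b 48 and 25. Each class was checked against marker genes other than its gate, counting those more than 2-fold above all other cells in both libraries. This held for 5 of 5 endothelial markers in Cdh5 cells, 6 of 6 fibroblast markers in Pdgfra cells, 5 of 5 tendon- and valve-type markers in Fmod+Scx cells, 5 of 5 smooth muscle markers in Myh11 cells, 5 of 5 pericyte markers in Kcnj8 cells and 6 of 6 epicardial markers in Upk3b cells. In Npr3+ cells it held for 4 of 5. Some markers of other types passed as well, so the classes are not pure types. Of the 5 pericyte markers, 3 passed at P1 and 4 at P7 in Myh11 cells, at 2826 and 4850 CPM summed. The sums in Kcnj8 cells were 5883 and 10870 CPM. In Cdh5 cells 5 of 6 cardiomyocyte markers passed at P7 and 0 at P1.

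Levels are given as CPM, the UMIs of a gene per 1000000 UMIs of its class, with the exact Poisson 95% interval in parentheses. Ratios of P1 over P7 are log2 values, for which 0.5 counts were added to both sums, and they carry an exact 95% interval. Folds of a class over all other cells have the same 0.5 counts added. All intervals cover counting error only, with each UMI taken as independent, and not the spread between cells, litters or preparations. Where a few cells hold many of the UMIs, the intervals are too narrow. A gene was counted as different between the ages when it had at least 20 UMIs in a class and differed at least 2-fold, which is a size and not a test.

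Sequence is shown for 3 members whose class of highest mean level differed, perivascular for Gdf10, endocardial for Bmp4 and valve-type for Bmper. For Bmp4 and Gdf10 that class changed when cells were chosen in other ways. The 250 bases before the annotated start are given, 5' to 3' on the strand of the gene. The sequences are from RefSeq, build GRCm38.p6, and capitals mark a GC box (GGGCGG, or CCGCCC on the other strand). They lie at chr14:46390670-46390919 (minus strand) for Bmp4, chr14:33923337-33923586 (plus) for Gdf10 and chr9:23222826-23223075 (plus) for Bmper.
Bmp4: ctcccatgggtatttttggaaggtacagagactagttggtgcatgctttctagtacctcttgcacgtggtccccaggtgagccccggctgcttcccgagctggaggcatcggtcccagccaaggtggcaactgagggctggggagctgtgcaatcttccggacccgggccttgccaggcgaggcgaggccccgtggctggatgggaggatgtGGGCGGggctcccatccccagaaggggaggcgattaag
Gdf10: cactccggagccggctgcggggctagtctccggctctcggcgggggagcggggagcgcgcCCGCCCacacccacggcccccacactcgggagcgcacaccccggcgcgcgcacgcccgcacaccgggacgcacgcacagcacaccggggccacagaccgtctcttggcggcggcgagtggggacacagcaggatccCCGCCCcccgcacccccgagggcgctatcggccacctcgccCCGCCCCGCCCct
Bmper: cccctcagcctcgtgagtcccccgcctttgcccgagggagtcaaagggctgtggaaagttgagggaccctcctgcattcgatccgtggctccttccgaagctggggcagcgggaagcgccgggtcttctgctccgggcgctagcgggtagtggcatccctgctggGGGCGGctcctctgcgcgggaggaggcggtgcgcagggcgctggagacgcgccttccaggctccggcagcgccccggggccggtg

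Promoter sequence was held for 7 of the 9 members, all but Bmp2 and Bmp7. The GC box was present in 32.7% of 32851 mouse promoter windows of this length. Gdf10 had 4 matches, the last 2 of them overlapping just before the start, Grem1 had 3, and Bmp4, Bmper and Bmp6 had 1 each. Bmp5 and Bmp10 had 0 matches. G and C made up 78.8% of the Gdf10 window, more than in 98.3% of promoters, and 63.2% and 71.6% of the Bmp4 and Bmper windows, whereas the Bmp5 window had 42.8%, with 17.9% of promoters below it. The TATA box (TATAAA or its reverse TTTATA, in 12.4% of promoters) was in none of the 7 windows, and the SMAD GC element (GGCGCC, in 9.59%) occurred once, in Grem1. These are letter matches only and say nothing of binding.

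**Figure D1:**
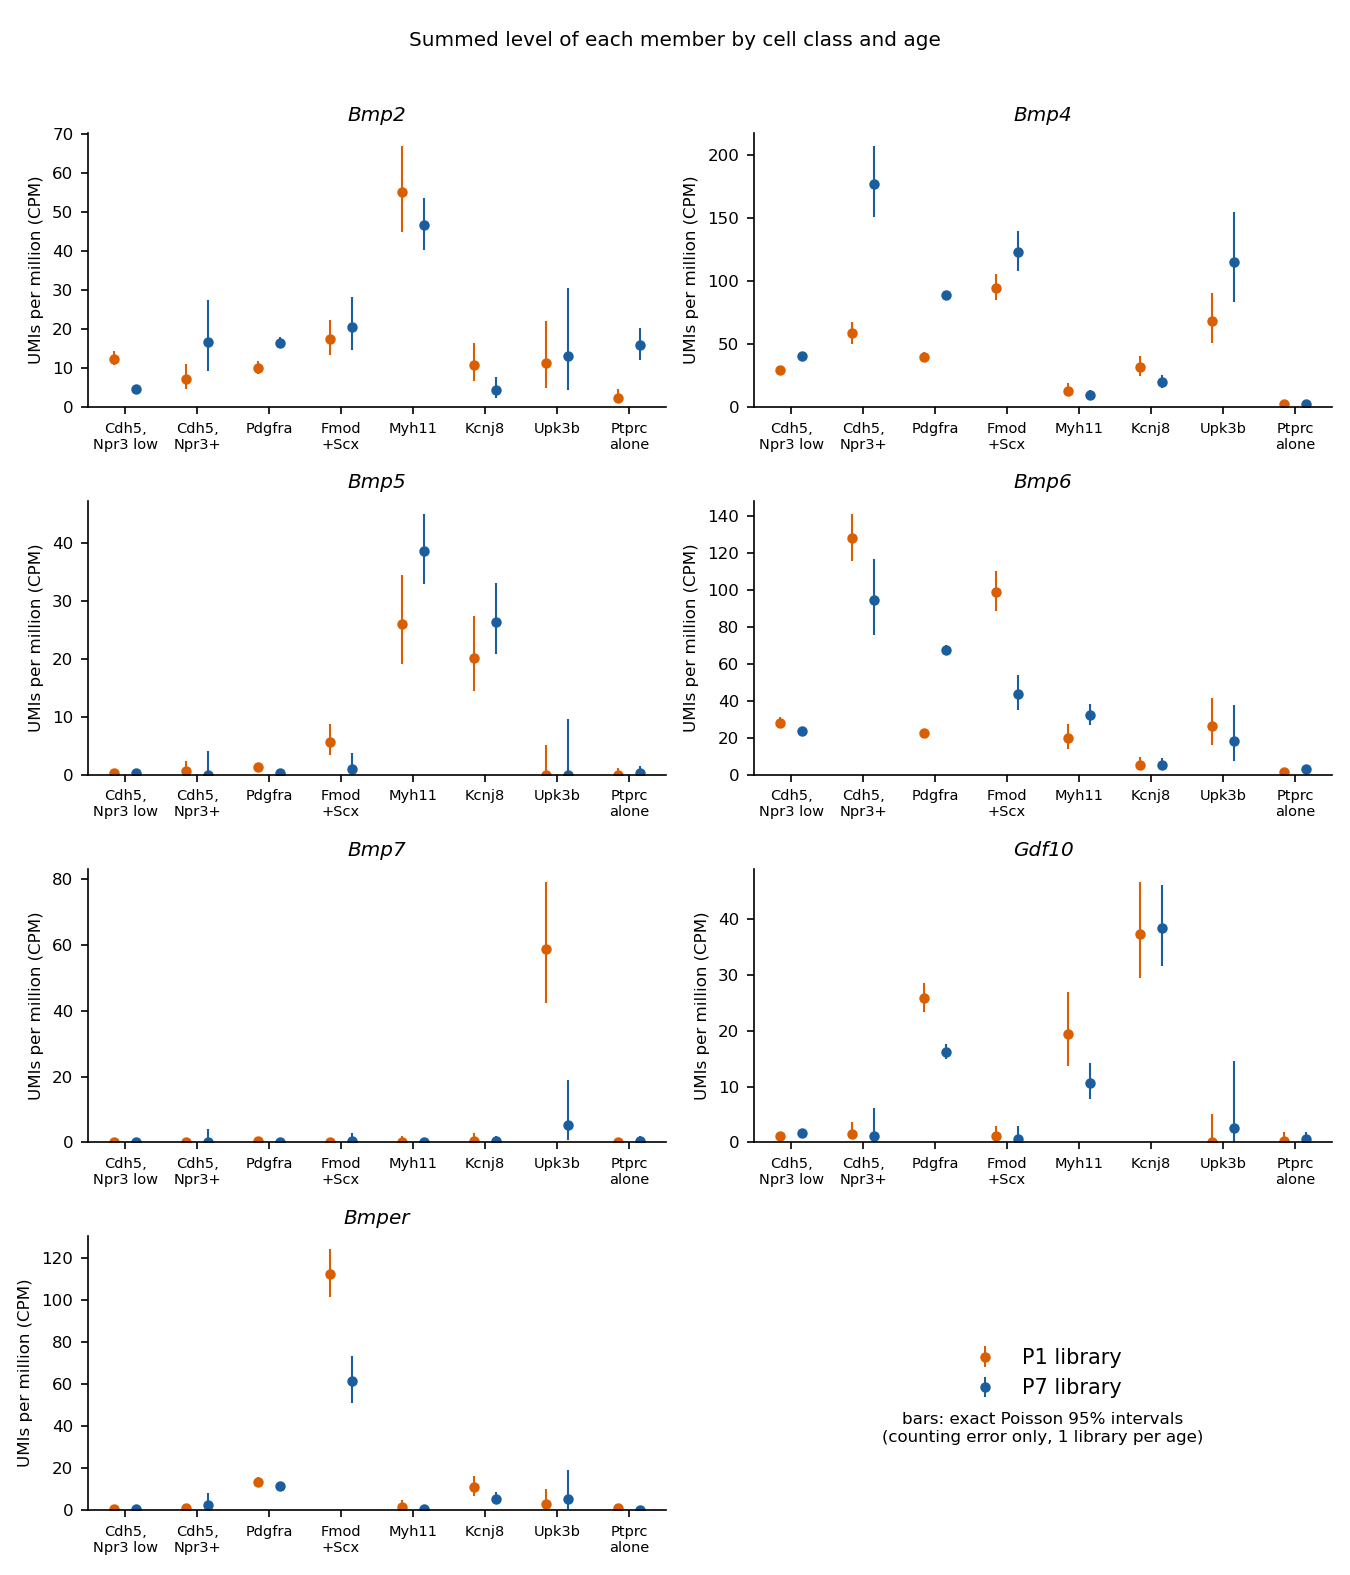
Summed level in CPM (vertical axis, a separate scale for each gene) of the 7 members with more than 2 UMIs in either library, by cell class (horizontal axis), at P1 (orange) and P7 (blue). Points are 1 library each and bars are exact Poisson 95% intervals. Bmp5 stood out in Myh11 and Kcnj8 cells, Bmp7 in Upk3b cells and Bmper in Fmod+Scx cells, whereas Bmp4 and Bmp6 were spread over endothelial, fibroblast and valve-type classes.

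The ligand Bmp2, known for its role in the atrioventricular cushions, was highest in smooth muscle. The gene lies at chr2:133552159-133562885 (mm10, plus strand). In Myh11 cells its level was 55.1 CPM (44.9-66.9, 102 UMIs) at P1 and 46.6 CPM (40.3-53.5, 198 UMIs) at P7, a log2 ratio of 0.25 (-0.12 to 0.59), and 36.8% and 32.2% of the cells had a UMI. The ages thus did not differ beyond counting error in the class with the highest level. The next class, Fmod+Scx, had 17.4 CPM at P1 and 20.6 CPM at P7, below the interval of Myh11 at both ages. Endothelium differed. In Npr3-low Cdh5 cells Bmp2 was at 12.4 CPM at P1 and 4.58 CPM at P7 (log2 1.43, 1.10 to 1.77), whereas in Npr3+ cells it was at 7.26 CPM (4.60-10.9) and 16.7 CPM (9.35-27.5), with a log2 ratio of -1.22 (-2.20 to -0.16). The latter rested on 23 and 15 UMIs, of which the 2 cells with most UMIs held 15 and 9, and after thinning to 2000 UMIs per cell the log2 ratio was -0.096. In Pdgfra cells the level was 10.1 CPM (8.58-11.8) at P1 and 16.4 CPM (15.1-17.9) at P7 (log2 -0.70). Among Pdgfra cells with a UMI of Pi16, a fibroblast gene, it was 12.2 and 19.1 CPM, and in those without, 9.42 and 9.01 CPM. Kcnj8 cells had 10.8 CPM (22 UMIs) and 4.45 CPM (13 UMIs), and lung-type cells held 12 of the 22 UMIs at P1. Without them the P1 level was 5.65 CPM (2.71-10.4) and the log2 ratio was 0.36. Bmp2 was also measured in leukocytes. Ptprc cells that passed no other gate had 2.25 CPM (0.907-4.65) at P1 and 15.8 CPM (12.0-20.4) at P7, where 22 of 459 cells held the 59 UMIs and 1 of 208 lymphocytes had any.

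Bmp4, a ligand with broad roles in mesoderm and outflow tract, was the most abundant member, with 2468 UMIs at P1 and 6297 at P7. It lies at chr14:46383520-46390669 on the minus strand, where Gm15217 and Gm15222 overlap it on the other strand. Over all kept cells its level was 41.8 CPM (40.2-43.5) at P1 and 64.6 CPM (63.0-66.2) at P7, a log2 ratio of -0.63 (-0.70 to -0.56). Fibroblasts held the largest class share at P7. Pdgfra cells had 40.0 CPM (36.9-43.3) at P1 and 89.1 CPM (85.9-92.3) at P7, a log2 ratio of -1.15 (-1.28 to -1.03), and their part of all Bmp4 UMIs was 25.2% at P1 and 47.7% at P7. The class itself held 15551387 of the 59026295 kept UMIs at P1 and 33725766 of 97432007 at P7, so its size differed too. A UMI was found in 34.3% of Pdgfra cells at P1 and in 65.5% at P7. After each cell had been thinned to 2000 UMIs these shares were 8.04% and 15.1%, from median depths of 16028 and 17065.5 UMIs. Ptprc cells of no other gate, taken as background for free RNA, had a Bmp4 UMI in 0.929% and 1.31% of cells at median depths of 7693 and 6363 UMIs. At P7, 3 of 208 lymphocytes had a Bmp4 UMI (1.44%).

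The difference in Pdgfra cells was present in 5 of 6 subsets. These split the same cells by Pi16, by Dpep1 and by Wisp1, so they overlap and are not independent. The level at P1 and P7 was 43.5 and 85.7 CPM in Pi16+ cells, 38.9 and 98.2 CPM in Pi16- cells, 39.4 and 93.8 CPM in cells with Dpep1, and 42.0 and 85.0 CPM in those without. Cells with a UMI of Wisp1 were the exception, at 88.8 CPM (71.2-109) in 58 cells at P1 and 85.9 CPM (75.4-97.6) in 146 cells at P7, a log2 ratio of 0.05 (-0.32 to 0.41). In Wisp1- cells the levels were 36.7 and 89.4 CPM. Thus at P1 the Wisp1+ cells had more Bmp4 than the other Pdgfra cells, and at P7 their intervals overlapped. These subsets were defined after values had been seen.

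The highest mean level of Bmp4 was in endocardial Npr3+ cells, at 58.4 CPM (50.3-67.5, 185 UMIs) at P1 and 177 CPM (151-207, 159 UMIs) at P7, a log2 ratio of -1.60 (-1.91 to -1.28). Few cells carried much of it. The 2 cells with most UMIs had 32 and 30 at P1 and 66 and 17 at P7, and without them the levels were 39.4 and 88.9 CPM and the log2 ratio was -1.18 (-1.60 to -0.74). The share of Npr3+ cells with a UMI was 26.6% at P1 and 55.9% at P7. When the class was rebuilt from at least 3 endothelial and 3 Npr3-type markers in place of the gates, the log2 ratio was -0.25, so the size depended on how endocardial cells were chosen. Fmod+Scx cells followed with 94.7 CPM (84.6-106) and 123 CPM (108-139), above Npr3+ cells at P1 and below them at P7. Without their own 2 cells with most UMIs, Fmod+Scx cells had 90.7 and 113 CPM, above the Npr3+ values without such cells at both ages. With a gate of 1 UMI the highest mean level of Bmp4 was in Fmod+Scx cells, so the lead of Npr3+ cells was not stable. Upk3b cells had 68.4 CPM (50.6-90.4) and 115 CPM (83.5-154), and 99.9 and 96.7 CPM once lung-type cells were left out, which took the log2 ratio from -0.75 to 0.04. Npr3-low Cdh5 cells had 29.1 CPM at P1 and 40.0 CPM at P7.

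Bmp4 was lower in the perivascular classes, with 31.9 CPM at P1 and 19.5 CPM at P7 in Kcnj8 cells (log2 0.71, but -0.35 with gates that were not exclusive) and 13.0 and 9.64 CPM in Myh11 cells. A single cell can set the value of a small class. In 34 Cdh5 cells with 2 or more UMIs of the arterial gene Gja5, Bmp4 was at 126 CPM at P1 against 23.1 CPM at P7, but 2 cells held 88.9% of the P1 UMIs and without them the log2 ratio was -0.17. In Cdh5 cells with Prox1, which marks lymphatic endothelium, it was 101 CPM in 19 cells at P1 and 110 CPM in 26 cells at P7. There 2 cells held 48.3% of the UMIs at P1 and 54.8% at P7.

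Bmp5 had its highest levels in the vessel-wall classes, Myh11 and Kcnj8, although in Myh11 cells Bmp2 was higher than Bmp5 at both ages. Bmp5 had 191 UMIs at P1 and 302 at P7, and lies at chr9:75775364-75900310, where Gm47723 overlaps on the same strand and Gm26903 on the other. In Myh11 cells its level was 25.9 CPM (19.1-34.4) at P1 and 38.6 CPM (32.9-44.9) at P7. Kcnj8 cells had 20.1 CPM (14.5-27.3) and 26.4 CPM (20.8-33.0). The intervals of these classes overlapped at both ages, and both classes stood far above the rest. Against all other cells the Myh11 class was 10.4-fold higher at P1 and 26.0-fold at P7, and the Kcnj8 class 7.72-fold and 11.1-fold. Of 16552 genes tested, 3.27% were at least 4-fold higher in Myh11 cells in both libraries, and 1.67% in Kcnj8 cells. Bmp5 was the sole member among them in either class, while Bmp2 was 5.23-fold higher at P1 and 3.66-fold at P7 in Myh11 cells. Myh11 cells held 25.1% of Bmp5 UMIs at P1 and 54.3% at P7. The log2 ratio between the ages was -0.56 (-1.07 to -0.10) in Myh11 cells and -0.38 (-0.97 to 0.18) in Kcnj8 cells. Lung-type cells held 13 of the 41 Bmp5 UMIs of Kcnj8 cells at P1, and without them the levels were 15.8 and 24.8 CPM.

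Outside these classes Bmp5 was low and mostly found at P1. Fmod+Scx cells had 5.59 CPM (3.36-8.73, 19 UMIs) at P1 and 1.03 CPM (0.125-3.72, 2 UMIs) at P7, a log2 ratio of 2.15 (0.39 to 5.58). Pdgfra cells had 20 UMIs at P1 and 11 at P7, or 1.29 and 0.326 CPM (log2 1.95, 0.85 to 3.19), and lung-type cells held 7 of the 20. Upk3b cells had 0 UMIs at both ages, which 3 counts would set below 4.19 CPM at P1 and below 7.84 CPM at P7.

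Bmp6, a ligand known from liver endothelium for the control of iron, had its highest levels in endocardial and valve-type cells at P1. At P7 its level was still highest in endocardial cells, with a lead that depended partly on 2 cells. Most of its P7 UMIs were in fibroblasts, a far larger class. Bmp6 lies at chr13:38345107-38500302 on the plus strand, overlapped on the other strand by 4930579J19Rik and Txndc5. Npr3+ cells had 128 CPM (116-141, 406 UMIs) at P1 and 94.6 CPM (75.6-117, 85 UMIs) at P7, a log2 ratio of 0.43 (0.10 to 0.79). At P7 the 2 cells with most UMIs held 22.4% of the sum. Without them the P7 level was 77.4 CPM (59.9-98.5), an interval that includes the Pdgfra level given below. Fmod+Scx cells had 99.1 CPM (88.8-110) and 43.8 CPM (35.0-54.2), a log2 ratio of 1.17 (0.83 to 1.54), and 66.7% and 41.9% of the cells had a UMI. Pdgfra cells moved the other way, with 22.4 CPM (20.1-24.9) at P1 and 67.6 CPM (64.9-70.4) at P7 (log2 -1.59, -1.76 to -1.43). The share of Pdgfra cells with a UMI was 25.4% at P1 and 55.4% at P7, and 4.36% and 12.4% after thinning to 2000 UMIs. Ptprc cells of no other gate had a Bmp6 UMI in 1.24% and 1.74% of cells. Pdgfra cells held 17.9% of all Bmp6 UMIs at P1 and 53.9% at P7, and the class was 18.2% and 22.6% of kept cells. These cells were deeper than most, so the 2 kinds of share are not alike. By level, all cells outside the class had 36.7 CPM at P1, above the Pdgfra level, and 30.6 CPM at P7, below it.

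The direction in Pdgfra cells was the same in all 6 overlapping subsets, with log2 ratios between -0.99 in Pi16- cells (20.7 and 41.1 CPM at P1 and P7) and -1.71 in Dpep1+ cells (22.4 and 73.7 CPM). Within P7, Pi16+ cells had 77.2 CPM and Wisp1+ cells 25.3 CPM. Wisp1+ cells thus had the least Bmp6 of the Pdgfra subsets, at P1 as well, where they had 8 UMIs or 8.07 CPM (3.49-15.9). In Npr3-low Cdh5 cells Bmp6 was at 28.3 CPM at P1 and 23.6 CPM at P7 (log2 0.26). Cdh5 cells with Gja5 had 18 UMIs at P1 and 7 at P7, or 42.1 and 5.78 CPM. There 2 cells held 66.7% of the P1 UMIs, and without them the P1 level was 15.5 CPM (5.67-33.6). Cdh5 cells with Prox1 had 83.9 and 54.8 CPM, where 2 cells held 58.3% of the UMIs at P1 and 61.9% at P7. In Myh11 cells it was 20.0 CPM (14.1-27.5) at P1 and 32.2 CPM (27.0-38.1) at P7, whereas Kcnj8 cells had 5.40 and 5.48 CPM.

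**Figure D2:**
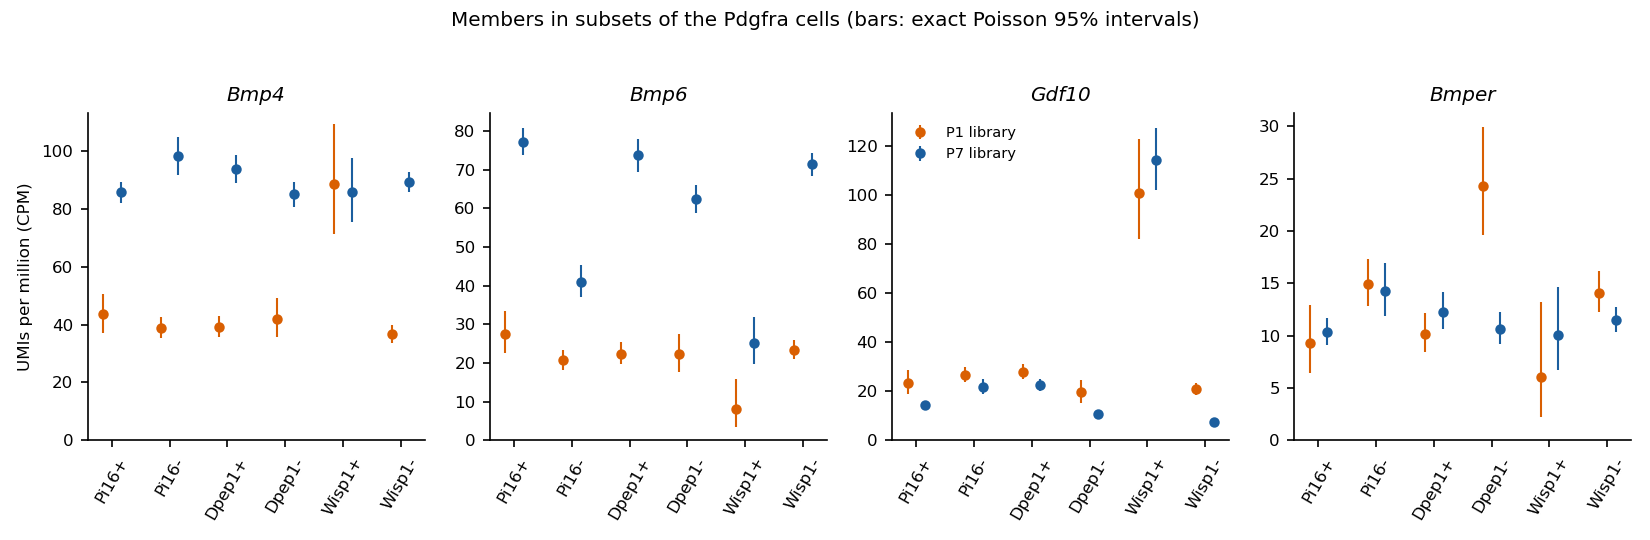
Levels in CPM (vertical axis, a separate scale for each gene) of Bmp4, Bmp6, Gdf10 and Bmper in Pdgfra cells with and without a UMI of Pi16, Dpep1 or Wisp1 (horizontal axis), at P1 (orange) and P7 (blue). Points are 1 library each and bars are exact Poisson 95% intervals. Gdf10 was highest in Wisp1+ cells, at 101 and 114 CPM, where Bmp6 was lowest, and Bmper differed between the ages in Dpep1- cells.

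Bmp7, a ligand known from kidney and skeletal development, was found mostly in Upk3b cells of the P1 library, and there mostly in cells counted as lung-type. It lies at chr2:172868012-172940321 on the minus strand, and had 64 UMIs at P1 and 13 at P7 over all kept cells, or 1.08 and 0.133 CPM (log2 2.98, 2.15 to 4.01). Upk3b cells held 42 of the 64 UMIs at P1, in 23 of 48 cells, at 58.6 CPM (42.3-79.3), and 2 UMIs in 25 cells at P7, at 5.23 CPM (0.633-18.9). With 0.5 counts added to each sum, the level was 154-fold that of all other cells at P1. At P7 it was 55.1-fold, from those 2 UMIs. By this measure 7.45% of genes were at least 4-fold higher in both libraries. In so small a class the added counts can set the fold. Grem1, too rare to be among the genes tested, had no Upk3b UMI and still came out at 27.1-fold at P1 and 254-fold at P7. The 7.45% may therefore include genes hardly detected in Upk3b cells. Lung-type cells moved with the Bmp7 result. They were 25 of the 48 Upk3b cells at P1 and held 36 of the 42 UMIs, at 90.9 CPM, and the other 23 cells had 6 UMIs, at 18.7 CPM (6.88-40.8). At P7 the 20 Upk3b cells that were not lung-type had 1 UMI, at 3.46 CPM (0.0875-19.3). The intervals of the ages overlap in these cells, so a difference in Bmp7 was not detectable in them at this depth. A further 7 UMIs at P1 were in 5 of 73 cells of a cardiomyocyte gate.

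Bmp10 is a ligand of atrial and trabecular cardiomyocytes. It lies at chr6:87428994-87437677, and had 1 UMI at P1 and 2 at P7, the latter both in 1 cell that passed no gate. No Bmp10 UMI was in the cardiomyocyte gate, which held 73 cells at P1 and 10 at P7, where 3 counts would be 6.32 and 66.8 CPM. Why the gene was nearly absent was not tested.

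Gdf10 (also known as Bmp3b) is a divergent ligand of the same superfamily, and lies at chr14:33923587-33937983 on the plus strand. Over all cells its summed counts were level, with 14.4 CPM (13.4-15.4, 850 UMIs) at P1 and 14.4 CPM (13.7-15.2, 1404 UMIs) at P7. The share of cells with a UMI was 7.87% at P1 and 4.61% at P7, with 2.16 and 3.58 UMIs per such cell. Kcnj8 cells had the highest class level, at 37.3 CPM (29.4-46.7) and 38.4 CPM (31.6-46.2), a log2 ratio of -0.04 (-0.48 to 0.39). A UMI was found in 19.3% of these cells at P1 and 11.2% at P7, where the 2 cells with most UMIs held 20 and 18, or 33.9% of the P7 sum. Lung-type Kcnj8 cells had 21 of the 76 UMIs at P1, and without them the levels were 31.1 and 40.3 CPM. The Kcnj8 ratio also depended on the gate, since it was -1.01 with a gate of 1 UMI and 1.09 when cells were chosen by 3 or more pericyte markers. No direction is therefore given for Gdf10 in pericyte-type cells.

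In Pdgfra cells Gdf10 was at 25.8 CPM (23.4-28.5, 402 UMIs) at P1 and 16.3 CPM (14.9-17.7, 549 UMIs) at P7, a log2 ratio of 0.67 (0.48 to 0.86). Its level was highest in the Wisp1+ cells, a subset defined after values had been seen. There 26 of 58 cells at P1 and 51 of 146 at P7 had a UMI and the level was 101 CPM (82.1-123) and 114 CPM (102-127). They held 100 of the 402 UMIs of Pdgfra cells at P1 and 316 of the 549 at P7. In Wisp1- cells the level was 20.7 CPM (18.5-23.2) at P1 and 7.53 CPM (6.59-8.56) at P7 (log2 1.46, 1.21 to 1.72). The age difference in Pdgfra cells thus stood in the Wisp1- cells, while the log2 ratio in Wisp1+ cells was -0.17, and the difference between the subsets was not tested. Its size varied with the processing, from 0.12 to 0.86 in log2 for the whole Pdgfra class. Cells of no gate with most markers on the fibroblast list held Gdf10 at 32.2 CPM (28.2-36.7) in the P1 library. Their P7 level was 38.0 CPM (34.7-41.5), so a lower level at P7 was not seen in them. The difference is therefore given for cells of the Pdgfra gate only. Myh11 cells had 19.4 CPM at P1 and 10.6 CPM at P7 (log2 0.88, 0.20 to 1.54). Cdh5 cells had 1.15 and 1.62 CPM, and Fmod+Scx cells 4 UMIs at P1 and 1 at P7. In Ptprc cells of no other gate, 1 cell at P1 and 2 cells at P7 had a Gdf10 UMI.

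Of the antagonists, Grem1 was practically absent from the counts, with 1 UMI at P1, in a Fmod+Scx cell, and 0 at P7. It lies at chr2:113746164-113758646 on the minus strand. Over all P7 cells 3 counts would correspond to 0.0308 CPM. Bmper, a secreted chordin-like protein that binds BMPs and is known from endothelial and heart development, lies at chr9:23223076-23485200 and marked the valve-type cells. Fmod+Scx cells had 112 CPM (101-124, 382 UMIs) at P1 and 61.3 CPM (50.8-73.4, 119 UMIs) at P7 (log2 0.87, 0.57 to 1.18). The class was 11.8-fold above all other cells at P1 and 9.53-fold at P7, with 2.14% of genes at least 4-fold higher in both libraries. A UMI was found in 66.2% and 52.1% of Fmod+Scx cells, and in 21.6% and 8.62% after thinning to 2000 UMIs. Ptprc cells of no other gate had a Bmper UMI in 2 of 323 cells at P1 and in 0 of 459 at P7, where 3 counts would be 0.802 CPM.

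Pdgfra cells came next for Bmper with 13.6 CPM (11.8-15.5) at P1 and 11.4 CPM (10.3-12.6) at P7, a log2 ratio of 0.25 (0.00 to 0.50). Without the 2 cells with most UMIs the ratio was 0.13 (-0.14 to 0.38). The Pdgfra part of the Bmper UMIs was 23.2% at P1 and 52.2% at P7, while that of the Fmod+Scx cells was 41.9% and 16.2%. The number of Fmod+Scx cells was 225 at P1 and 117 at P7. Pdgfra cells were 18.2% of kept cells at P1 and 22.6% at P7, and Fmod+Scx cells 4.51% and 1.37%. By level, all cells outside the Pdgfra class had 16.1 CPM at P1, above the Pdgfra level, and 5.53 CPM at P7, below it. The log2 ratio over all cells, 1.03 (0.89 to 1.17), with 15.4 CPM at P1 and 7.55 CPM at P7, was above those of both classes. Dpep1- Pdgfra cells had 24.3 and 10.6 CPM at P1 and P7 and Dpep1+ cells 10.2 and 12.3 CPM, so the direction differed between these subsets, a difference that was not tested. In Kcnj8 cells Bmper was at 10.8 CPM (22 UMIs) and 5.14 CPM (15 UMIs). Lung-type cells held 6 of the 22 UMIs, and without them the levels were 9.03 and 5.55 CPM (log2 0.70), while without the 2 cells with most UMIs the log2 ratio was 0.76 (-0.51 to 2.07). The Cdh5, Npr3+, Myh11 and Upk3b classes had at most 5.23 CPM. Cells of no gate had 23.0 CPM (20.0-26.4) at P1, above the Pdgfra level, and 9.61 CPM (8.10-11.3) at P7.

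**Figure D3:**
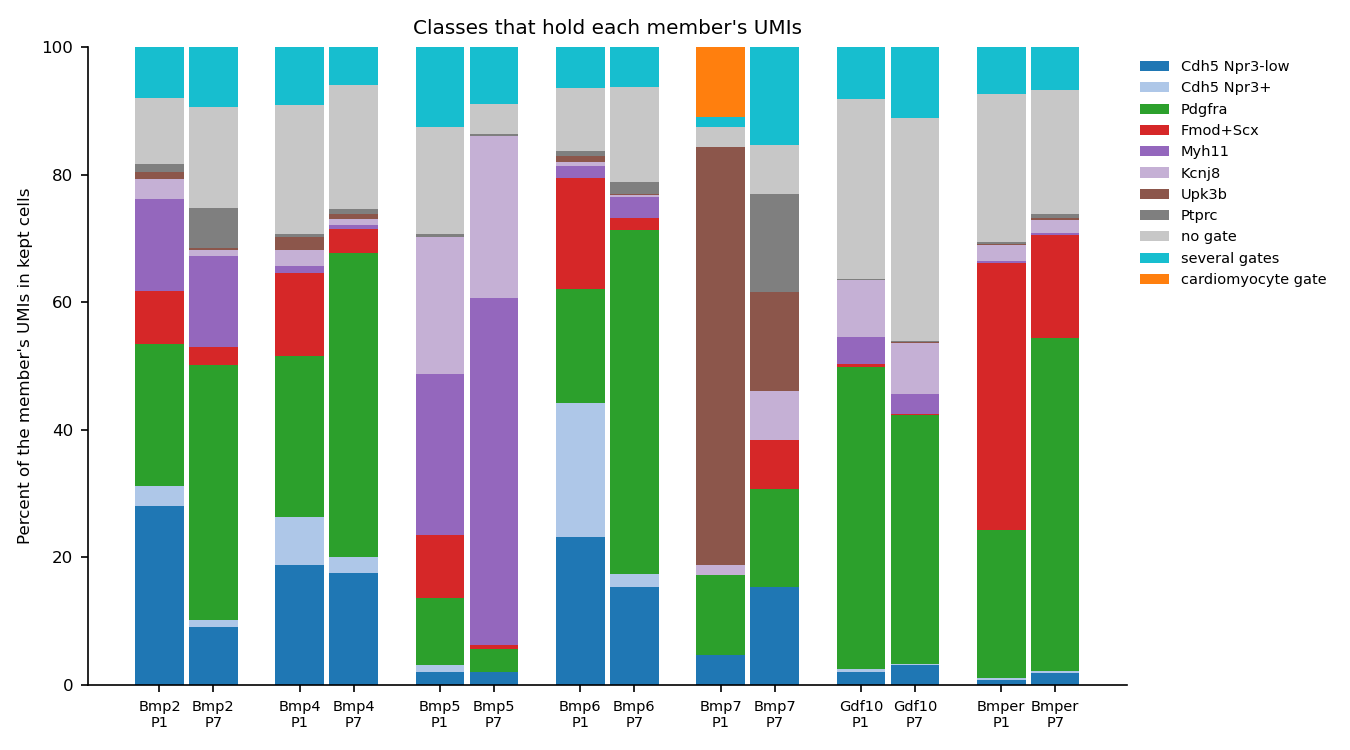
Percent of each member's UMIs in kept cells (vertical axis, 0 to 100) that fell in each cell class (colours), for the 7 members with more than 2 UMIs in either library, P1 and P7 side by side. The Pdgfra part was larger at P7 for Bmp4 (25.2% and 47.7%), Bmp6 (17.9% and 53.9%) and Bmper (23.2% and 52.2%). The Pdgfra class was itself 18.2% of kept cells at P1 and 22.6% at P7. By UMIs, the measure of the columns, it held 15551387 of 59026295 at P1 and 33725766 of 97432007 at P7. The P7 column of Bmp7 holds only 13 UMIs.

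The number of members that differed between the ages was set beside the share of all genes that did. Over all cells 2 of the 7 members with at least 20 UMIs, Bmp7 and Bmper, were at least 2-fold higher at P1 and 0 at P7, where 12.9% of 16552 genes differed 2-fold in either direction. In Pdgfra cells 3 of 6 differed, Bmp4 and Bmp6 higher at P7 and Bmp5 higher at P1, against 10.1% of genes. In Cdh5 cells it was 1 of 5 (Bmp2, higher at P1) against 9.47%, and in Npr3+ cells 2 of 3 (Bmp2 and Bmp4, higher at P7) against 8.52%. Fmod+Scx cells had 2 of 5 (Bmp5 and Bmp6, higher at P1) against 7.09%, and Upk3b cells 1 of 3 (Bmp7) against 10.7%. In Kcnj8 cells Bmp2 and Bmper of 6 were higher at P1 against 5.94%, and 0 of them were past 2-fold without lung-type cells or with a gate of 3 UMIs, while in Myh11 cells it was 0 of 5 against 7.51%. With both classes pooled, Bmper of 6 was higher at P1 against 7.21%. With 3 to 7 members per class, 1 gene moves each share by a large step, and the counts changed with the minimum UMIs and the gate. The median log2 ratio of all genes was within 0.1 of 0 in each class. In Cdh5, Npr3+ and Pdgfra cells, where 3.43%, 1.59% and 0.453% of genes were at least 4-fold above other cells in both libraries, no member was, out of 7 tested.

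**Figure D4:**
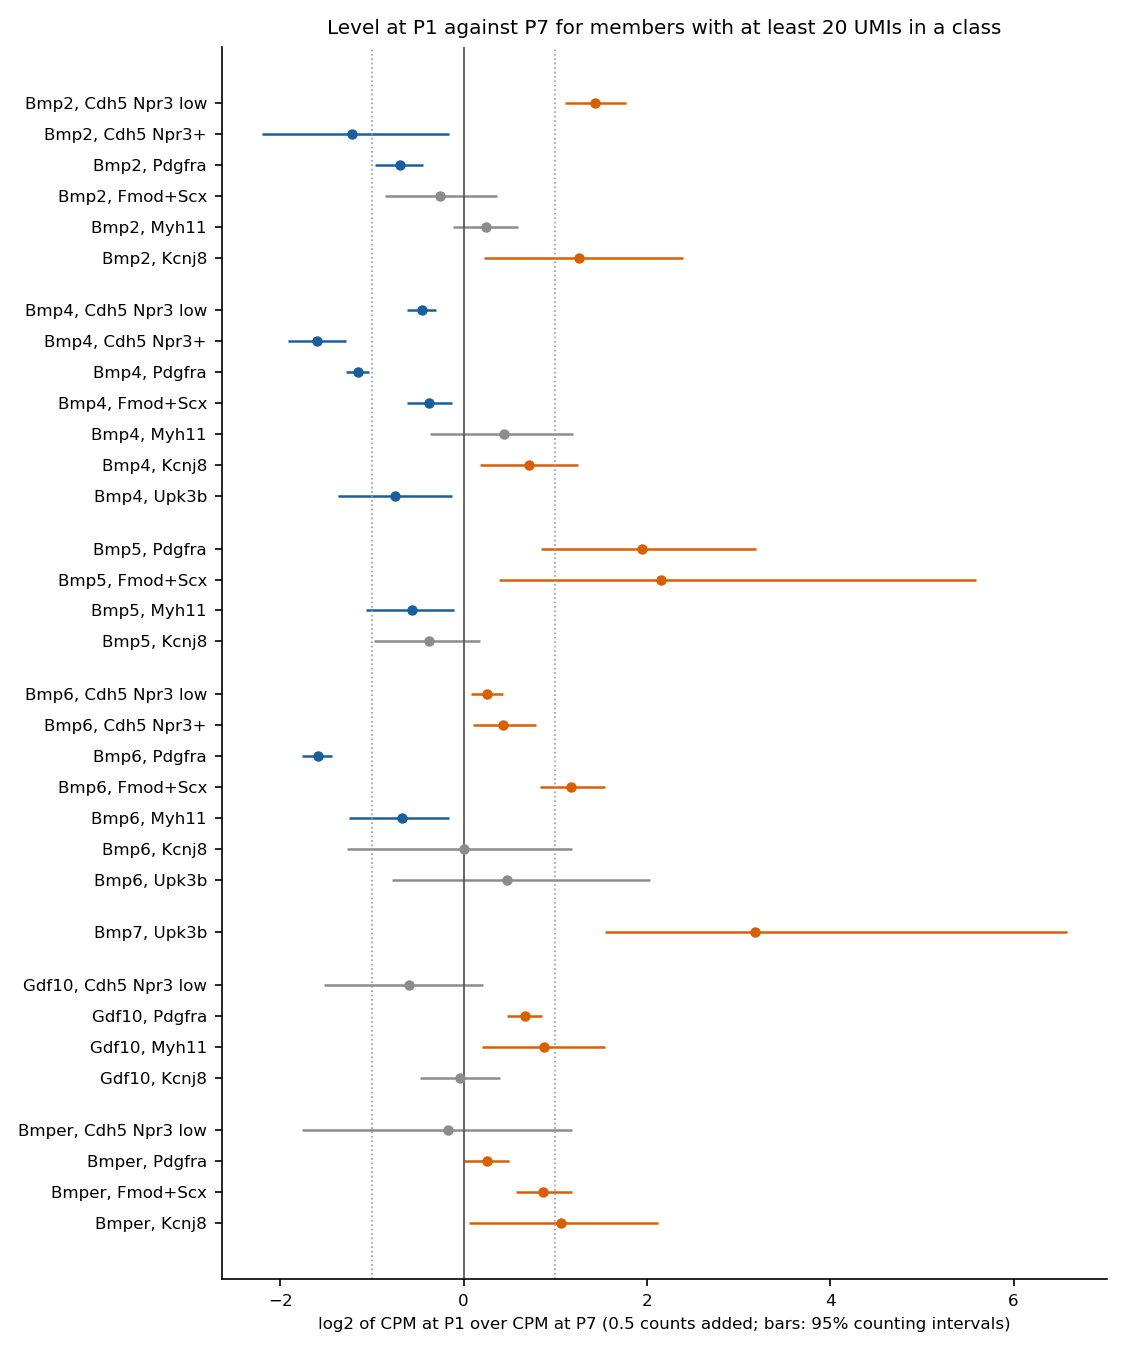
Log2 of CPM at P1 over CPM at P7 (horizontal axis, 0.5 counts added) for each member with at least 20 UMIs in a class (rows), with exact 95% counting intervals as bars. Orange marks intervals wholly above 0 (higher at P1), blue those wholly below, grey those that include 0, and dotted lines mark a 2-fold difference. Bmp4 was to the left in the Npr3+ and Pdgfra rows, at -1.60 and -1.15, and Bmp6 to the left in Pdgfra cells, at -1.59, and to the right in Fmod+Scx cells, at 1.17.

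Whether members shared cells was asked after thinning to 2000 UMIs. Among 895 P1 and 1918 P7 Pdgfra cells, no cell had both Gdf10 and Bmper, which were found in 43 and 27 cells at P1 and in 47 and 49 at P7. Bmp4 and Bmp6 were found together in 5 cells at P1 and 38 at P7. Bmp6 was present in 6.94% of Bmp4-positive and 4.13% of Bmp4-negative cells at P1, and in 13.1% and 12.2% at P7. Joint detection was thus rare at this depth, and the counts are too low to tell separate cells from sparse sampling. Across 8 classes in 2 libraries (16 points that share libraries and depth), the highest correlation between members was 0.70, for Bmp5 and Gdf10, followed by 0.66 for Bmp4 and Bmp6 and 0.53 for Bmp4 and Bmper (Pearson, log2 of CPM plus 1). Of 13578 genes, those most like each member over the same points were Prickle1 (0.93), Pdia3 (0.92) and Slc27a3 (0.92) for Bmp4, and Dpysl4 (0.98), Tpbg (0.96) and Col11a1 (0.96) for Bmper. For Bmp5 they were Tbx3os1 (0.97), Errfi1 (0.96) and Rasl12 (0.96), and for Gdf10 Ngfr (0.92), Tslp (0.90) and Sept7 (0.90). Bmp2 and Bmp6 had no gene as close, with Pnck (0.83), Phkg1 (0.81) and Pank1 (0.81) for Bmp2 and Ltbp1 (0.82), Zfp521 (0.81) and Gmds (0.81) for Bmp6.

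The receptors that read these ligands were measured from a list of 50 other pathway genes. Of 11 receptors and co-receptors, 10 had at least 20 UMIs in Cdh5, in Pdgfra and in Myh11 or Kcnj8 cells. In each, 0 of 10 differed 2-fold between the ages, beside 9.47%, 10.1% and 7.21% of all genes, so the count was near those shares. In Npr3+ cells, a part of the Cdh5 class in which 8.52% of all genes differed 2-fold, 1 of 9 did, the co-receptor Tgfbr3, at 72.0 CPM (63.0-82.0) at P1 against 23.4 CPM (14.5-35.7, 21 UMIs) at P7. The type I receptor Bmpr1a was at 11.4 CPM at P1 and 6.48 CPM at P7 in Cdh5 cells. Within that class it was at 49.0 and 80.1 CPM in Npr3+ cells and 3.94 and 4.07 CPM in Npr3-low cells. Neither part by itself was thus lower at P7. Pdgfra cells had 70.2 and 67.5 CPM of Bmpr1a, and Myh11 cells 91.8 and 99.7 CPM. Acvrl1, a type I receptor known from endothelium, was at 99.7 and 81.7 CPM in Cdh5 cells. Pdgfra cells had 65.3 CPM (61.3-69.4) at P1 and 94.97 CPM (91.7-98.3) at P7, the latter above the Cdh5 level of the same age. The type II receptor Bmpr2 ranged from 51.3 to 109 CPM in Cdh5, Pdgfra and Myh11 cells.

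Of 8 genes that BMP signals are known to induce, 2 in Cdh5 cells, 3 in Pdgfra cells and 2 in Myh11 or Kcnj8 cells were at least 2-fold higher at P1, and 0 were higher at P7 in each, beside the 9.47%, 10.1% and 7.21% of all genes that differed in either direction. In Upk3b cells 4 of 6 were at least 2-fold higher at P7 and 0 at P1, beside 10.7% of all genes. These were Id1 (286 and 580 CPM at P1 and P7), Id2 (103 and 220 CPM), Smad7 (29.3 and 62.7 CPM) and Bambi (37.7 and 214 CPM). Without lung-type cells the Upk3b levels were 400 and 539 CPM for Id1, 134 and 214 CPM for Id2 and 34.4 and 65.7 CPM for Smad7, each less than 2-fold apart, and 43.7 and 221 CPM for Bambi. The inhibitory Smad6 was higher at P1 in the 3 classes named first, with 71.0 CPM at P1 and 26.7 CPM at P7 in Cdh5 cells (log2 1.41), 52.1 and 9.58 CPM in Pdgfra cells (log2 2.44) and 31.1 and 3.76 CPM in Myh11 or Kcnj8 cells (log2 3.03, 2.44 to 3.71). The others were Id2, an inhibitor of helix-loop-helix factors, in Cdh5 cells (230 and 88.8 CPM at P1 and P7), Id1 (163 and 78.6 CPM) and Atoh8 (14.3 and 5.84 CPM) in Pdgfra cells, and Atoh8 (9.01 and 1.95 CPM) in Myh11 or Kcnj8 cells. Npr3+ cells, 218 of 1617 Cdh5 cells at P1 and 68 of 3197 at P7, held 2945 of the 4408 Id2 UMIs at P1 and 524 of 2523 at P7, and neither part differed 2-fold by itself, with 930 and 583 CPM in Npr3+ and 91.4 and 72.7 CPM in Npr3-low cells. Smad6 remained past 2-fold in Npr3-low cells (56.6 and 23.95 CPM, log2 1.24), but not in Npr3+ cells (143 and 112 CPM, log2 0.35). It was also less than 2-fold apart in Fmod+Scx cells (86.2 and 50.5 CPM). Upk3b cells had 27.9 and 44.4 CPM of Smad6, with overlapping intervals. Id3 had no 2-fold difference, with 1005 CPM at P1 and 1242 CPM at P7 in Cdh5 cells. The median log2 ratio of the 8 genes was 0.05, 0.76 and 0.53 in the 3 classes. Several of these genes also answer other signals, and which signal set their levels was not tested. Levels without lung-type cells are not given for these genes in the 3 classes, nor for the antagonists below other than Sost. Such cells were 11.4% of Cdh5 cells at P1 and 3.91% at P7, and 4.18% and 0.936% of Pdgfra cells. They were 13.2% and 4.06% of Myh11 cells and 14.1% and 6.76% of Kcnj8 cells. Of the 4 SMADs tested, Smad9 differed 2-fold in Pdgfra cells, with 16 UMIs at P1 and 10 at P7 (log2 1.77).

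Other antagonists and processing genes went both ways. Sost, a secreted inhibitor of WNT signals related to the BMP antagonists, differed most, with 396 UMIs in 28 of 152 Myh11 cells at P1 (214 CPM, 193-236) and 1 UMI in 394 Myh11 cells at P7, and 379 of the 396 lay outside lung-type cells. Npr3+ cells had 97.3 and 46.8 CPM of Sost at P1 and P7. All Cdh5 cells had 21.9 and 2.04 CPM, where Npr3+ cells were 218 of 1617 at P1 and 68 of 3197 at P7. In Pdgfra cells it had 33 UMIs at P1 and 0 at P7, at least 23.9-fold higher against a floor of 3 counts, but 19 of the 33 UMIs were in 1 cell of 9. Fst, the activin and BMP binding follistatin, was higher at P1 in Cdh5 cells (4.07 and 0.985 CPM) and Pdgfra cells (4.24 and 1.39 CPM), at low levels, and was at 66.2 CPM at P1 and 76.3 CPM at P7 in Fmod+Scx cells. In Fmod+Scx cells 90 of the 225 Fst UMIs at P1 were in 1 cell, and the P1 level was 40.1 CPM without it. The protease Tll1 was at 2.40 and 0.704 CPM in Cdh5 cells, and at 0.75 and 0.545 CPM in the Npr3-low part, where it was less than 2-fold apart.

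Higher at P7 in Pdgfra cells were the ligand Gdf6 (5.72 CPM at P1 and 19.5 CPM at P7, log2 -1.76) and the antagonists Chrd (4.50 and 11.1 CPM, log2 -1.29) and Nbl1 (103 and 259 CPM, log2 -1.33). Gdf6 (0.313 and 0.845 CPM, from 6 and 24 UMIs, log2 -1.35) and the follistatin-like Fstl3 (0.626 and 1.87 CPM, log2 -1.53) were higher at P7 in Cdh5 cells. Both were at low levels there, and for Gdf6 the level was far below that of Pdgfra cells. In Myh11 or Kcnj8 cells none was 2-fold higher at P7, and the lowest ratios were those of Acvr2b (-0.54) and Gdf11 (-0.45). In all, 5 of 37 pathway genes in Cdh5 cells, 6 of 36 in Pdgfra cells and 3 of 33 in Myh11 or Kcnj8 cells were 2-fold higher at P1, and 2, 3 and 0 were 2-fold higher at P7, with median log2 ratios of 0.15, 0.08 and 0.27. Over all genes 9.47%, 10.1% and 7.21% differed 2-fold in these classes in either direction. In Fmod+Scx cells, where Bmper was highest, the antagonist Chrdl1 was at 27.6 CPM at P1 and 25.8 CPM at P7. In Upk3b cells Nbl1 was at 730 and 609 CPM. Nog, the antagonist noggin, was at most at 5.15 CPM in any class.

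**Figure D5:**
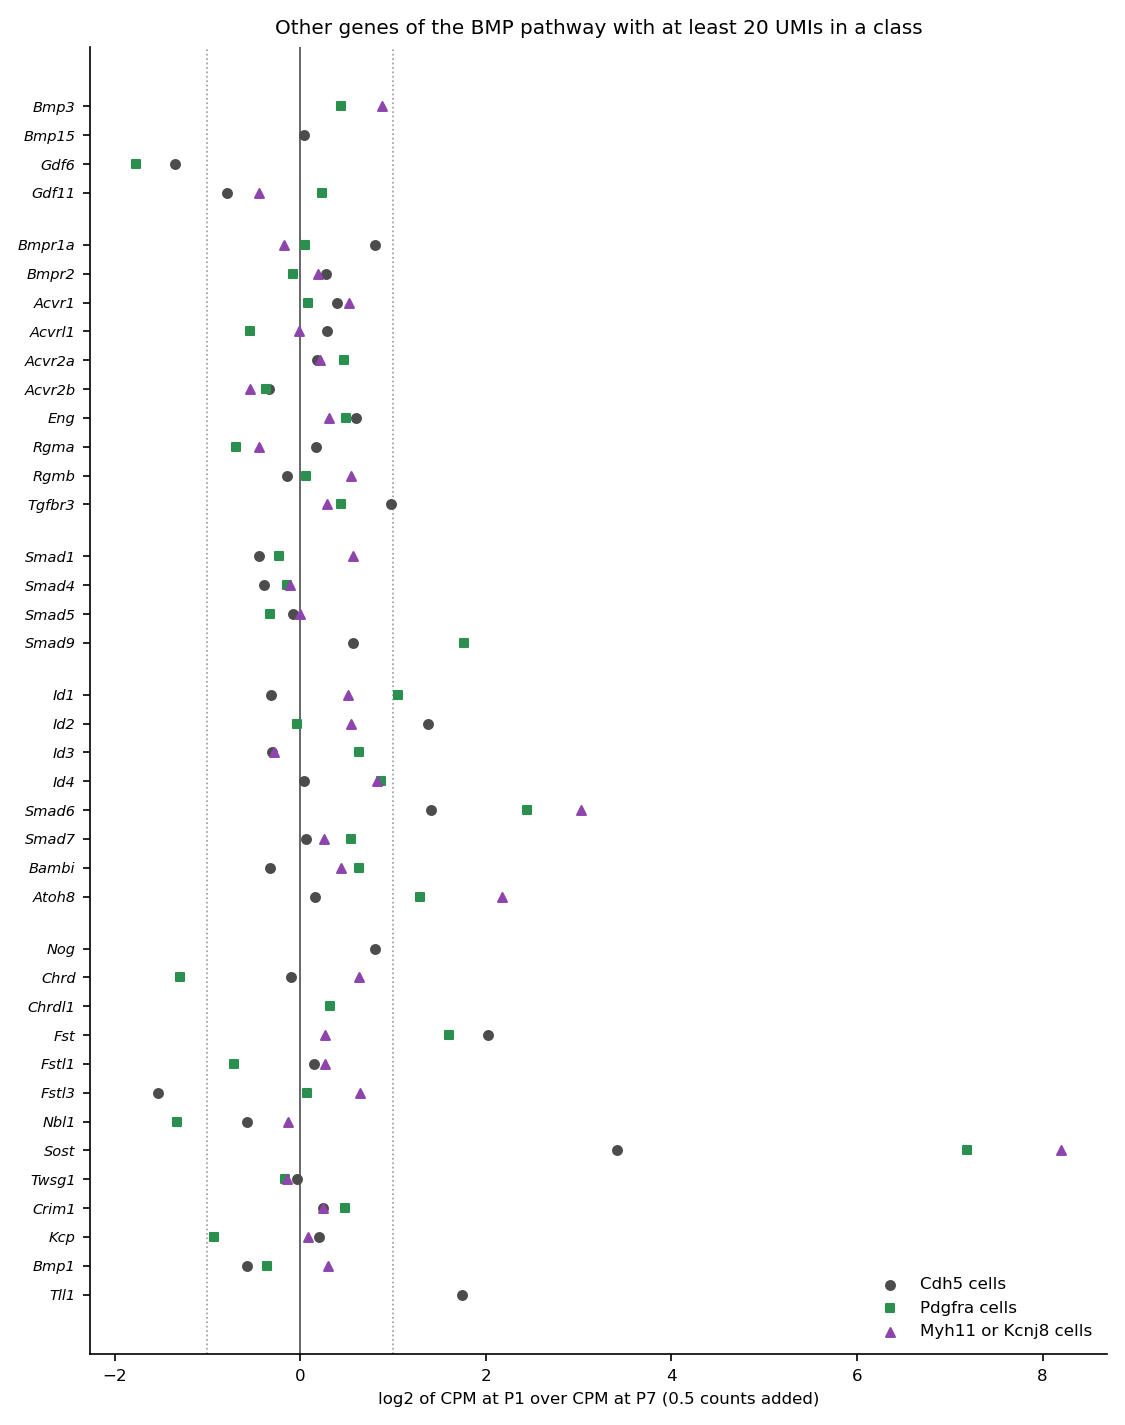
Log2 of CPM at P1 over CPM at P7 (horizontal axis, 0.5 counts added) for other genes of the BMP pathway with at least 20 UMIs in a class (rows, grouped as ligands, receptors, SMADs, induced genes, and antagonists with processing genes), in Cdh5 cells (circles), Pdgfra cells (squares) and Myh11 or Kcnj8 cells (triangles). Dotted lines mark a 2-fold difference. Receptors lay inside the dotted lines, Smad6 lay beyond them at P1 in all 3 classes, and the position of Sost in Pdgfra cells (0 UMIs at P7) depends on the added counts.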

How the data were processed

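Single cell RNA-seq libraries of pooled P1 and P7 mouse hearts (10x Genomics 3' chemistry, kit as labelled) had been processed by the authors with Cell Ranger 3.1.0 against mm10 (GRCm38), per the labels. The deposited values are raw UMI counts per gene and barcode, with no normalisation. Barcodes with 200 to 8000 genes and at most 20% mitochondrial UMIs were kept, which left 4991 of 7836 barcodes at P1 and 8511 of 9077 at P7, and no normalised value was taken from the authors. Counts were summed per class and library and scaled to CPM.

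A cell with at least 2 Ptprc UMIs was a leukocyte. Other cells had to pass 1 gate, except that Upk3b and Fmod+Scx took precedence over Pdgfra, Myh11 and Kcnj8, and a cell with both Myh11 and Kcnj8 went to the gene with more UMIs. Cells of several gates (149 at P1, 291 at P7) and of no gate (1285 and 1699) were left out of classes. Doublets were not called; an alternative left out the 6% of cells with most UMIs. The study's own clusters were not used.

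With 1 library per age no test was made. Intervals are exact Poisson for CPM, Clopper-Pearson for shares and conditional binomial for ratios, at 95%, and UMIs without replicate libraries give counting error only. For shares, cells were also thinned to 2000 UMIs, without the 574 P1 and 727 P7 cells of lower depth. A count of 0 was set against a floor of 3 counts per class sum. The ratio step was tested on simulated Poisson counts, which hold no clustering of UMIs in cells. Members, gene lists, gates and the rule for named genes (all members, the 3 genes most like each, pathway genes past 2-fold and the 2 largest ratios each way) were chosen with earlier results of these data known. The subsets by Gja5, Prox1, Wisp1, Pi16 and Dpep1, the Ptprc cells of no other gate, the values without the 1 or 2 cells with most UMIs, the pathway lists in Npr3+, Npr3-low and Upk3b cells and the count of sign changes were added later. Gene positions are from GENCODE and promoter sequences from RefSeq, both GRCm38. Python 3.11.15, numpy 2.4.6, scipy 1.17.1, pandas 2.3.3 and matplotlib 3.10.9 were used.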

Additional observations from a re-analysis of the deposited data

Results flagged for a closer look

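For Bmp2 the log2 ratio of P1 over P7 was 1.43 in Npr3-low Cdh5 cells and 1.26 in Kcnj8 cells, and -1.22 in Npr3+ Cdh5 cells, and with 1 library per age the difference between the classes was not tested. The Npr3-low value was 1.63 (1.25 to 2.01) without the 2 cells with most UMIs, and was not recomputed under the other alternatives. The Npr3+ value, from 23 and 15 UMIs, was -0.096 after thinning to 2000 UMIs, and the Kcnj8 value was 0.36 without lung-type cells and -0.095 with a gate of 1 UMI. Bmp6 likewise had a log2 ratio of -1.59 in Pdgfra cells and 1.17 in Fmod+Scx cells, and this difference was not tested either.

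Cells that passed no gate, which enter no class, held Bmp4 at 54.5 (P1) and 82.2 CPM (P7) and Gdf10 at 26.2 (P1) and 33.0 CPM (P7), all above the leukocyte level, and Bmper at 23.0 and 9.61 CPM. Those with most markers on the fibroblast list, 699 cells at P1 and 1018 at P7, had Bmp4 at 63.9 and 91.8 CPM and Gdf10 at 32.2 and 38.0 CPM. In the barcodes removed by the filters at P7, Bmper was at 15.3 CPM (8.37-25.7, 14 UMIs), against 7.55 CPM in the kept cells.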

How the results depend on the processing

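No paired analysis was possible because there was 1 library per age, so no replicate could be left out or matched. Of the values that answer a comparison, 123 stayed within counting error (or 1.5 times, for counts) and 22 moved. Bmp4 in Npr3+ cells (log2 -1.60) was -1.28 with gates that were not exclusive, -0.25 with cells chosen by at least 3 class markers, -1.996 after thinning to 2000 UMIs and -1.18 without the 2 cells with most UMIs. Gdf10 in Kcnj8 cells (-0.04) was -1.01 with a gate of 1 UMI, 1.09 with class markers and 0.57 as a mean of per-cell CPM, and Bmper in Fmod+Scx cells (0.87) was 1.54 after thinning. The members at least 2-fold different numbered 2 in Cdh5 and 1 in Myh11 cells with a minimum of 5 UMIs, and with a minimum of 50 UMIs 1 in Npr3+, 1 in Fmod+Scx, 0 in Kcnj8 and 0 in Upk3b cells. A gate of 1 UMI gave 1 in Fmod+Scx and 1 in Myh11 cells, a gate of 3 UMIs 1 in Npr3+ and 0 in Kcnj8 cells, and leaving out lung-type cells 1 in Fmod+Scx, 0 in Kcnj8 and 0 in Upk3b cells. With class markers no cell fell in the Fmod+Scx class, so that alternative gave no value for it. The class with the highest level was then the same for 4 of 7 members, with Bmp5 leading in Kcnj8 and Gdf10 in Pdgfra cells, while Bmper could not lead in its own class. Of the other ratios 326 stayed, 33 moved and 1 that was past 2-fold reversed. Adding 0.1 or 1 count, or centring on the median of all genes, left each of 33 ratios within counting error. The sign changed in 23 of 457 ratio values (a Gdf10 ratio that centring set to 0 was not counted), 20 of them with an interval that included 0 to begin with. The other 3 were Bmp2 in Kcnj8 cells (1.26 to -0.095 with a gate of 1 UMI), Bmp4 in Kcnj8 cells (0.71 to -0.35 with gates not exclusive) and Bmp4 in Upk3b cells (-0.75 to 0.04 without lung-type cells). The cause of these moves was not tested. Bmp4 in Pdgfra cells stayed between -1.30 and -0.77 and Bmp6 between -1.67 and -0.97 under all alternatives run, including those without lung-type cells and without the 6% of cells with most UMIs. Levels under about 1 CPM rest on few UMIs, and age, sex, litter and digestion time cannot be told apart.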
